A study of Homo sapiens with 4 samples.

Results

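The TGF-beta ligands, receptors and receptor-activated SMADs were followed in OVSAYO, a human line of ovarian clear cell carcinoma (CCC) cells. The 10 genes were chosen by name and not by a cut on their measured values, though earlier results of these data were known. They are the ligand genes TGFB1, TGFB2 and TGFB3, the activin subunit gene INHBA, the receptor genes TGFBR1, TGFBR2 and TGFBR3, the signal transducers SMAD2 and SMAD3, and TGFBI, which encodes a matrix protein induced by TGF-beta. Every non-control spot whose RefSeq accession mapped to 1 of these symbols was taken. This gave 43 spots of 16 probes, for 10 of the 17721 genes with a named probe on the arrays. The probes of TGFB1, SMAD2 (A_23_P15937) and SMAD3 had 10 spots each, and the other 13 probes had 1 spot.

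Cells were transfected with a Silencer negative control siRNA (NS-si, called scramble siRNA in the labels) or with siRNA against Sp1 (Sp1-si). They were cultured for 40 h by the labels, while a legend of the study gives a shorter time. Cells of each kind were then exposed to 0.5 mM CoCl2, a hypoxia-mimicking agent, for 4 h (→ CoCl2), or left unexposed. RNA of the resulting NS-si, Sp1-si, NS-si → CoCl2 and Sp1-si → CoCl2 cells was hybridised to single-colour whole genome arrays, 1 array per condition, on 1 slide. The comparisons ask how CoCl2 and the loss of Sp1, a transcription factor that binds GC-rich promoter elements, alter transcript levels, alone and together.

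With 1 array per condition, no ratio has a replicate, no test could be made, and precision is limited by the number of arrays. Levels are log2 intensities relative to the 75th percentile of the array, and ratios are differences of these levels on the log2 scale. The error given after ± is the SD of the log2 ratio between spots, taken from the probe itself where it had 10 spots and otherwise from the 53 such probes nearest in signal. It covers the array measurement and not the spread between cultures. In RNA of a whole culture, a transcript made by fewer cells cannot be told apart from less of it in each cell.

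The 75th percentile of signal ran from 977 to 1287 over the arrays. The SP1 probe with 10 spots was at a log2 ratio of -3.77 ± 0.11 in Sp1-si relative to NS-si cells and at -3.87 ± 0.10 under CoCl2. Epithelial markers (5 of 5 genes) and clear cell carcinoma markers (3 of 3) were well above background on all 4 arrays. WT1 did not pass this call on any array, while ESR1, usually low in this tumour, passed on all 4 at signals of 45.0 to 55.8. Of other cell types, endothelial markers were at background (0 of 2 genes). The fibroblast markers DCN and LUM and the leukocyte markers CD68 and CD3E were well above background on all arrays, but PDGFRB and PTPRC were at background on all of them. The summed unscaled fibroblast signal was 799 for NS-si, 367 for Sp1-si, 583 for NS-si → CoCl2 and 431 for Sp1-si → CoCl2 cells, and the leukocyte sum was 975, 464, 1064 and 732. Both sums were lower in the Sp1-si cells of either pair. LUM and CD68 were the largest part of them, while CD3E was at 273 for NS-si → CoCl2 and 327 for Sp1-si → CoCl2 cells. The samples were cultures of a cell line, and any part of these genes in the Sp1-si ratios was not tested.

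TGF-beta ligands are secreted in a latent form, and once released they bind the type II receptor TGFBR2, which recruits and phosphorylates the type I receptor TGFBR1. The active complex phosphorylates SMAD2 and SMAD3, which enter the nucleus with SMAD4 and regulate target genes together with other factors. In epithelial tumours the pathway is known both for restraining growth and for promoting invasion and matrix production, and its ligand genes include some that respond to hypoxia.

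The promoters of the genes whose ratios are described most fully are shown first, as the 250 bases before a transcription start in RefSeq on GRCh38.p14, written 5′ to 3′ on the strand of the gene. All 10 genes were matched, with 24 such windows, since several have more than 1 start. Capitals mark the GC box, the letters GGGCGG or CCGCCC to which Sp1 is known to bind, and the core letters of the hypoxia response element (HRE), ACGTG or GCGTG and their reverse complements CACGT and CACGC. Where matches overlap, their letters run together. SMAD2 is shown at its most upstream start (chr18:47930873-47931122, minus strand), TGFB1 at chr19:41353923-41354172 on the minus strand, and TGFB2 at chr1:218345086-218345335 on the plus strand.
SMAD2: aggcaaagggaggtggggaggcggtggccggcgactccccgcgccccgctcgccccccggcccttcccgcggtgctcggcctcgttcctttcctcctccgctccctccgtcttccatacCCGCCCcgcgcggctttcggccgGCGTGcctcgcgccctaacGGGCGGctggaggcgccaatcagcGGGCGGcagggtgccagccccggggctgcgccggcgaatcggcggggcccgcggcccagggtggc
TGFB1: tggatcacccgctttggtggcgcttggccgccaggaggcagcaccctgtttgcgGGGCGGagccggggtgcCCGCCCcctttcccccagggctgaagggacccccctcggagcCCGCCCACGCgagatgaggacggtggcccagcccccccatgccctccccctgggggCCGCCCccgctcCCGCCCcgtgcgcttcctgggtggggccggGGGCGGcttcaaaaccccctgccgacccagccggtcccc
TGFB2: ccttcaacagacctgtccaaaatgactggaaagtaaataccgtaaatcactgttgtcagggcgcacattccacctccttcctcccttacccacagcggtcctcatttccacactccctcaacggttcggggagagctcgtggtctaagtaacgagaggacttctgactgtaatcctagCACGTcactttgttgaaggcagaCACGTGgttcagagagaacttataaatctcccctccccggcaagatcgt

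The SMAD2 window held 3 GC boxes and 1 HRE core, the TGFB1 window 6 GC boxes and 1 HRE core, and the TGFB2 window 0 GC boxes and 3 HRE cores, where a run of CACGTG counts on both strands. Their GC content was 78.4% for SMAD2, 76.8% for TGFB1 and 50.4% for TGFB2. A GC box was found in 11 of the 24 windows, belonging to 7 of the 10 genes, against 42.6% of the 35116 windows of the same length over all genes. The windows of TGFB2, TGFB3 and INHBA held 0 GC boxes. An HRE core was found in 16 of the 24 windows, against 43.2% of all windows. The 24 windows are not independent, since some genes have several and some windows overlap, so that a match can count more than once. A match of letters is a description of the window and says nothing on its own about binding in these cells.

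Of the 16 probes, 13 were well above background on all 4 arrays, and they represent 9 of the 10 genes. INHBA had no such probe. CoCl2 in NS-si cells put 1 of the 13 probes past 2-fold higher, that of TGFB2, where 4.06% of the 31313 probes measured on this pair of arrays were that much higher, and 0 probes past 2-fold lower, where 3.82% were. In Sp1-si cells CoCl2 put 0 of the 13 past 2-fold in either direction, against 3.44% of all probes higher and 5.79% lower. Sp1 silencing without CoCl2 put 2 probes past 2-fold higher, both of SMAD2, against 5.03% of all probes, and 0 lower, against 5.36%. Under CoCl2 it put 3 probes higher, again all of SMAD2, against 6.06%, and 1 lower, that of TGFB2, against 9.21%. The CoCl2 ratio in Sp1-si cells minus that in NS-si cells was past 1 on the log2 scale for 1 probe, that of TGFB2, on the lower side, where 4.9% of all probes were, and for 0 on the higher side, where 1.04% were. The SMAD2 probes measure 1 gene, so in each comparison and direction at most 1 of the 9 measured genes was past 2-fold.

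The median log2 ratio of the 13 probes was -0.032 for CoCl2 in NS-si cells, against 0.020 over all probes, and -0.047 in Sp1-si cells, against -0.018. For Sp1 silencing it was 0.38 without CoCl2, against -0.017 over all probes, and 0.42 under CoCl2, against -0.063. Several of these probes measure the same gene, SMAD2 most often. With each of the 9 measured genes by its probe of highest mean signal, the Sp1-si median was smaller. It was 0.20 without CoCl2, against -0.012 over all genes, and 0.34 under CoCl2, against -0.017. Leaving out the scaling between arrays moves every log2 ratio by the same amount, which is -0.23 for CoCl2 in NS-si cells, 0.23 for CoCl2 in Sp1-si cells, -0.055 for Sp1 silencing without CoCl2, 0.40 for Sp1 silencing under CoCl2 and 0.45 for the difference of the CoCl2 ratios. Signs that turn with the scaling are named beside the values.

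**Figure D1:**
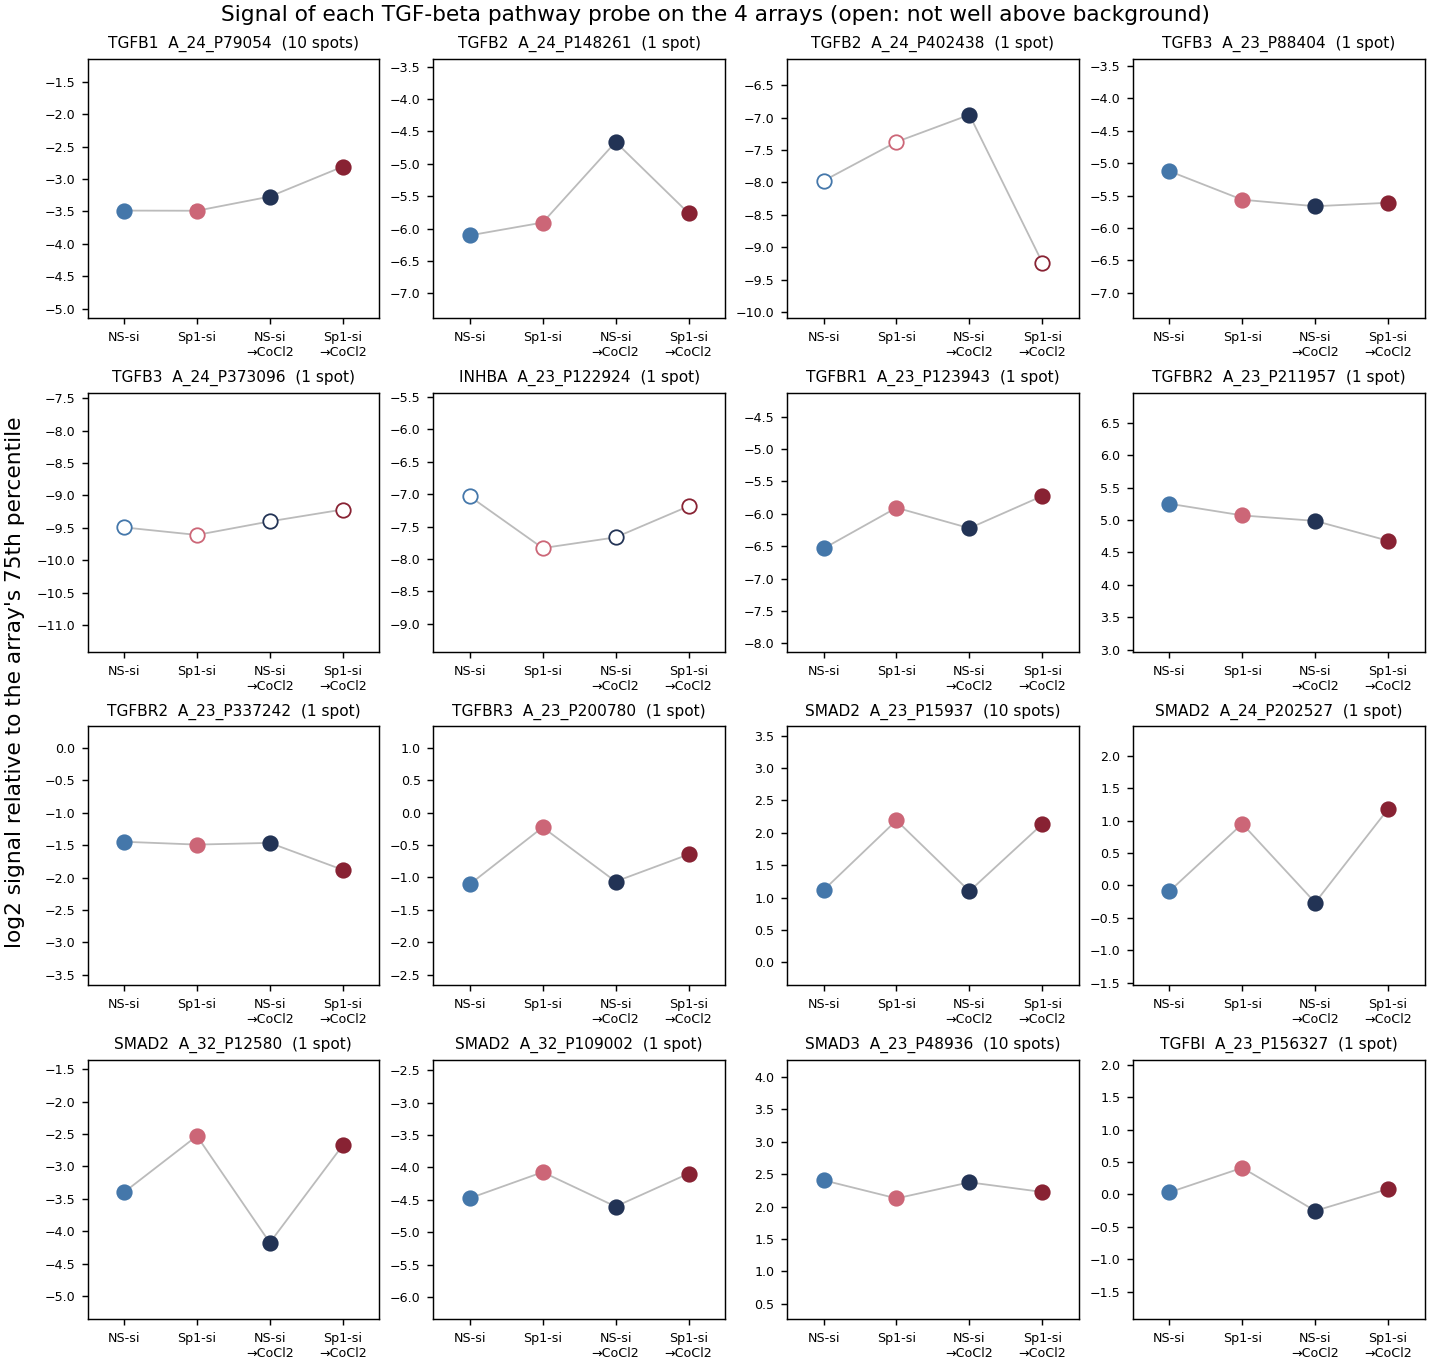
Level of each of the 16 probes on the 4 arrays, as log2 signal relative to the 75th percentile of the array, with 1 point per array, open points where the probe was not well above background, and the same span on every vertical axis. All 4 SMAD2 panels stand higher in Sp1-si cells with and without CoCl2, and the first TGFB2 panel stands out on the NS-si → CoCl2 array at a signal of 38.6.

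TGFB2 had the largest CoCl2 ratio of the ligand genes, in NS-si cells, whereas its CoCl2 ratio after Sp1 silencing was within the spread between spots. The signal of its measured probe (A_24_P148261, 1 spot) was 16.6 for NS-si, 18.3 for Sp1-si, 38.6 for NS-si → CoCl2 and 23.7 for Sp1-si → CoCl2 cells. The NS-si → CoCl2 array was thus high and the other 3 were low. The log2 ratio of NS-si → CoCl2 to NS-si cells was 1.44 ± 0.17, and that of Sp1-si → CoCl2 to Sp1-si cells was 0.14 ± 0.15. The latter was lower by a log2 difference of -1.30 ± 0.22, and under CoCl2 the Sp1-si cells were at -1.097 ± 0.16 relative to NS-si cells. Without CoCl2 the Sp1-si ratio was 0.20 ± 0.17. Over the scalings tried, the CoCl2 ratio of TGFB2 in NS-si cells ran from 1.21 to 1.45, the Sp1-si ratio under CoCl2 from -1.097 to -0.70, and the difference of the CoCl2 ratios from -1.30 to -0.84. This probe was dim, and with a normexp background correction, which shrinks low signals, the ratios were 0.55, -0.61 and -0.67 in the same order.

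A further TGFB2 probe, A_24_P402438, passed the background call only on the NS-si → CoCl2 array. It could therefore be compared only in the direction of that array, and it is no separate evidence for the pattern of the first probe. Its signal was 4.5 for NS-si, 6.6 for Sp1-si, 7.9 for NS-si → CoCl2 and 2.1 for Sp1-si → CoCl2 cells. After scaling, the NS-si → CoCl2 signal was 1.24-fold above the lowest signal that passed the background call on the NS-si array. It was 1.01-fold above that of the Sp1-si → CoCl2 array. These are not strict bounds, since a probe can fail the call above the lowest passing signal. INHBA failed at 8.7 on the NS-si array, where the lowest passing signal was 7.4. The lowest passing signal was 6.9 on the NS-si → CoCl2 array and 10.2 on the Sp1-si → CoCl2 array. A signal of 7.9 was thus near the limit of the former and below that of the latter.

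TGFB1, the founding ligand gene of the family, was highest where Sp1 was silenced and CoCl2 was present. Its probe (A_24_P79054, 10 spots) had a mean signal of 102 for NS-si, 97.8 for Sp1-si, 101 for NS-si → CoCl2 and 184 for Sp1-si → CoCl2 cells. Its spots ran from 95.6 to 107 in NS-si, from 91.9 to 108 in Sp1-si, from 89.8 to 106 in NS-si → CoCl2 and from 173 to 189 in Sp1-si → CoCl2 cells. In unscaled signal only the last array stood apart from the other 3. The log2 ratio of Sp1-si → CoCl2 to Sp1-si cells was 0.68 ± 0.086, with 10 of 10 spots higher by 0.51 to 0.80. Over the scalings tried it ran from 0.63 to 0.91, and normexp gave 0.42. The Sp1-si ratio under CoCl2 was 0.46 ± 0.065, with 9 of 9 spots higher by 0.38 to 0.57. Without CoCl2 the Sp1-si ratio was -0.0023 ± 0.078, a sign that turned with median scaling, quantile normalization and the value table of the authors. The CoCl2 ratio in NS-si cells was 0.22 ± 0.074, with 8 of 8 spots higher after scaling, but -0.0097 without scaling. None of the TGFB1 ratios reached 2-fold.

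**Figure D2:**
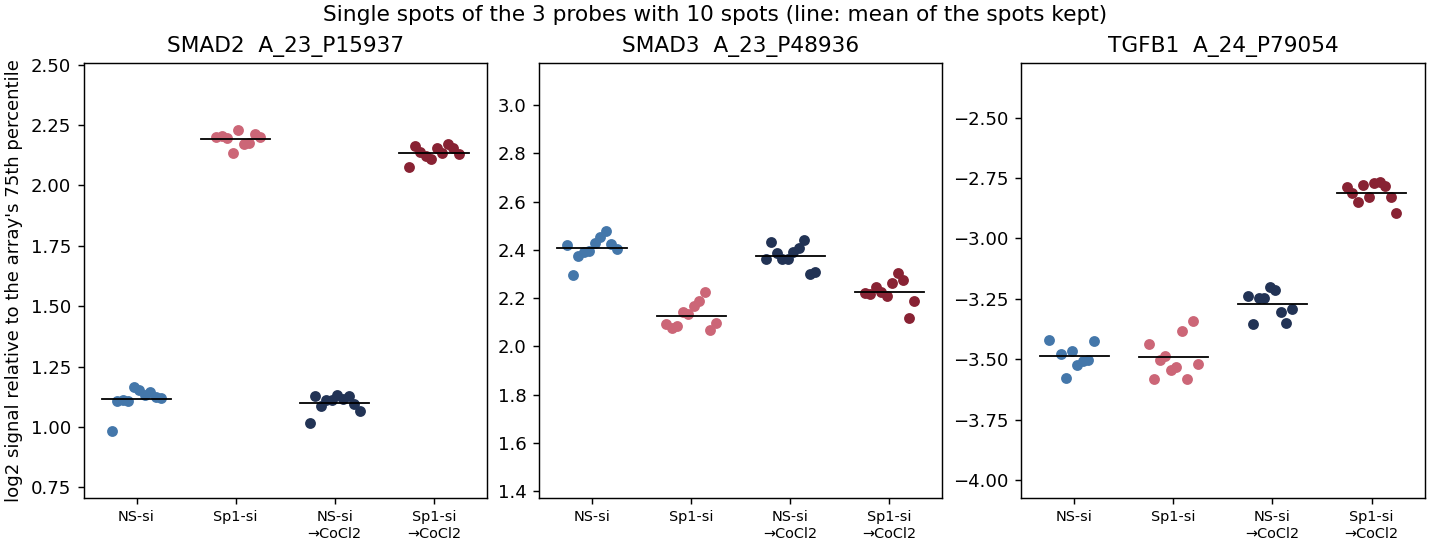
Single spots of the SMAD2, SMAD3 and TGFB1 probes with 10 spots on each of the 4 arrays, as log2 signal relative to the 75th percentile of the array, with a line at the mean of the spots not flagged as outliers. SMAD2 spots of both Sp1-si arrays lie apart from those of both NS-si arrays, SMAD3 spots of unexposed Sp1-si cells lie below those of unexposed NS-si cells, and TGFB1 spots lie apart on the Sp1-si → CoCl2 array.

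TGFB3 had its highest level in untreated NS-si cells. The signal of its measured probe (A_23_P88404) was 32.8 for NS-si, 23.3 for Sp1-si, 19.3 for NS-si → CoCl2 and 26.4 for Sp1-si → CoCl2 cells, and after scaling the last 3 arrays did not differ beyond the spread between spots. The log2 ratio to NS-si cells was -0.54 ± 0.16 for NS-si → CoCl2 and -0.44 ± 0.16 for Sp1-si, but the probe was dim and normexp gave -0.043 and -0.11. In Sp1-si cells the CoCl2 ratio was -0.047 ± 0.15, which was positive without scaling and with median or quantile scaling, and under CoCl2 the Sp1-si ratio was 0.054 ± 0.16. The difference of the CoCl2 ratios was 0.49 ± 0.21, opposite in sign to that of TGFB2. With normexp it was -0.057.

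The second TGFB3 probe (A_24_P373096), at signals of 1.4 to 2.2, was at background on every array. The same held for the INHBA probe (A_23_P122924), whose gene encodes the subunit of activin A, with 8.7 for NS-si, 4.8 for Sp1-si, 4.8 for NS-si → CoCl2 and 8.8 for Sp1-si → CoCl2 cells. No ratio is given for either.

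Among the receptors, no ratio reached 2-fold in any comparison. TGFBR3, or betaglycan, a co-receptor that presents TGF-beta2 to the signalling receptors, came nearest. Its signal (A_23_P200780) was 531 for NS-si, 941 for Sp1-si, 468 for NS-si → CoCl2 and 824 for Sp1-si → CoCl2 cells. Both arrays of Sp1-si cells were higher than both of NS-si cells. The Sp1-si log2 ratio was 0.88 ± 0.036 without and 0.42 ± 0.038 under CoCl2. CoCl2 itself gave 0.043 ± 0.039 in NS-si cells, a sign that turned without scaling and with the authors' value table, and -0.42 ± 0.036 in Sp1-si cells, so that the difference of the CoCl2 ratios was -0.46 ± 0.050 (-0.0090 without scaling).

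TGFBR2, the ligand-binding type II receptor, was lowest after scaling in Sp1-si → CoCl2 cells on both of its probes. The signal of A_23_P211957 was 43544 for NS-si, 36987 for Sp1-si, 30997 for NS-si → CoCl2 and 33026 for Sp1-si → CoCl2 cells, and no spot was saturated. That of A_23_P337242 was 419, 391, 354 and 349.5 in the same order. The CoCl2 ratio in Sp1-si cells was -0.39 ± 0.026 on the first probe and -0.39 ± 0.046 on the second, so the probes gave the same value there. In NS-si cells the first probe gave -0.26 ± 0.028 and the second -0.018 ± 0.045, which turned to 0.011 with quantile normalization. The Sp1-si ratio under CoCl2 was -0.31 ± 0.022 on the first probe, turning to 0.091 without scaling, and -0.42 ± 0.043 on the second, where it was -0.018 without scaling. Without CoCl2 the Sp1-si ratio was -0.18 ± 0.023 on the first probe and -0.044 ± 0.046 on the second. The difference of the CoCl2 ratios was -0.13 ± 0.032 and -0.37 ± 0.067, and both turned positive without scaling.

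TGFBR1, the type I receptor kinase, gave dim signals. They were 12.3 for NS-si, 18.3 for Sp1-si, 13.1 for NS-si → CoCl2 and 24.3 for Sp1-si → CoCl2 cells (A_23_P123943), with both Sp1-si arrays above both NS-si arrays. The Sp1-si ratio was 0.63 ± 0.20 without and 0.50 ± 0.20 under CoCl2, but with normexp these were 0.14 and -0.14. The CoCl2 ratio was 0.31 ± 0.18 for NS-si and 0.18 ± 0.19 for Sp1-si cells. Their difference of -0.13 ± 0.27 was within the spread between spots and turned positive without scaling and with quantile normalization.

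**Figure D3:**
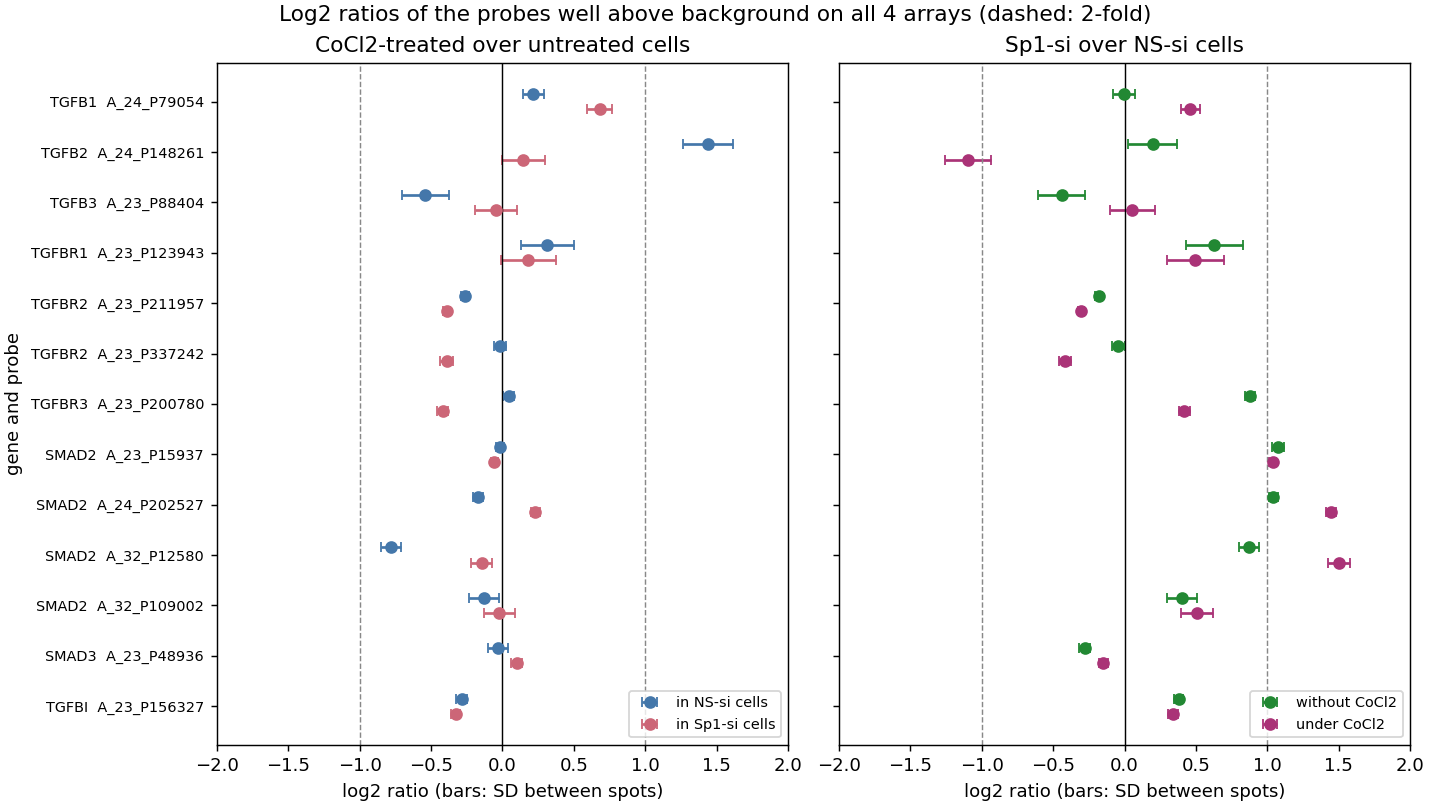
Log2 ratios of the 13 probes that passed the background call on every array, with CoCl2-treated over untreated cells on the left and Sp1-si over NS-si cells on the right, and bars for the SD between spots. The TGFB2 point for CoCl2 in NS-si cells (1.44) and for Sp1-si cells under CoCl2 (-1.097) lie beyond the dashed 2-fold lines, as do 2 of the 4 SMAD2 points for Sp1-si cells without CoCl2 and 3 of the 4 under it.

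SMAD2, which carries the signal of activated TGF-beta and activin receptors to the nucleus, had the highest Sp1-si ratios among the 10 genes. On its probe with 10 spots (A_23_P15937), the mean signal was 2474 for NS-si, 5023 for Sp1-si, 2093 for NS-si → CoCl2 and 5656 for Sp1-si → CoCl2 cells. The spots ran from 2261 to 2563 and from 1978 to 2143 in NS-si cells without and with CoCl2, and from 4676 to 5154 and from 5434 to 5803 in Sp1-si cells, so the siRNA groups did not overlap. The Sp1-si log2 ratio was 1.08 ± 0.042 without CoCl2, with 9 of 9 spots higher by 0.97 to 1.096. Under CoCl2 it was 1.04 ± 0.023, with 10 of 10 spots higher by 0.999 to 1.062. CoCl2 moved this probe little, with -0.016 ± 0.028 for NS-si and -0.056 ± 0.026 for Sp1-si cells, of which the second turned positive without scaling and with median scaling. Over the scalings tried the Sp1-si ratio ran from 1.02 to 1.13 without CoCl2 and from 1.04 to 1.43 with it, and normexp gave 1.07 and 1.03.

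The other 3 SMAD2 probes were also higher in Sp1-si cells, by different amounts. On A_24_P202527 the signal was 1072 for NS-si, 2124 for Sp1-si, 813 for NS-si → CoCl2 and 2915 for Sp1-si → CoCl2 cells, which gave Sp1-si ratios of 1.04 ± 0.030 (0.99 without scaling) and, under CoCl2, 1.44 ± 0.033. On A_32_P12580 it was 108, 190.2, 54.0 and 201 in the same order, with ratios of 0.87 ± 0.071 and 1.502 ± 0.074. On A_32_P109002 it was 51.4, 65.4, 40.2 and 75.4, with ratios of 0.40 ± 0.10 and 0.51 ± 0.11, the smallest of the 4 probes. All 4 probes thus gave the same direction in both pairs, under every setting that was run, while 2 of them passed 2-fold without CoCl2 and 3 under it. With normexp A_24_P202527 gave 0.96 without CoCl2 and A_32_P12580 gave 0.90 under it, each short of 2-fold.

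The SMAD2 probes disagreed on CoCl2. In NS-si cells the CoCl2 ratio was -0.78 ± 0.070 on A_32_P12580, -0.17 ± 0.035 on A_24_P202527 and -0.13 ± 0.11 on A_32_P109002, against -0.016 on the probe with 10 spots. In Sp1-si cells it was -0.14 ± 0.073 on A_32_P12580, which turned positive without scaling, 0.23 ± 0.032 on A_24_P202527, and -0.023 ± 0.11 on A_32_P109002, within the spread between spots and positive without scaling and with median or quantile scaling. The difference of the CoCl2 ratios was -0.040 ± 0.036 on the probe with 10 spots, 0.40 ± 0.044 on A_24_P202527, 0.63 ± 0.10 on A_32_P12580 and 0.11 ± 0.16 on A_32_P109002. The first of these turned positive without scaling and with median scaling, and the last was -0.19 with normexp.

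SMAD3, the partner of SMAD2 that binds DNA directly, did not share its ratios. The mean signal of its probe (A_23_P48936, 10 spots) was 6061 for NS-si, 4806 for Sp1-si, 5070.3 for NS-si → CoCl2 and 6026 for Sp1-si → CoCl2 cells. Without CoCl2 the Sp1-si ratio was -0.28 ± 0.041, with 10 of 10 spots lower by -0.36 to -0.22 and no overlap of the spots. Under CoCl2 it was -0.15 ± 0.031, with 10 of 10 spots lower but overlapping between the arrays, and it was 0.25 without scaling. CoCl2 gave -0.032 ± 0.070 for NS-si and 0.099 ± 0.037 for Sp1-si cells. The difference of the CoCl2 ratios was 0.13 ± 0.055.

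TGFBI, the one member that encodes a product of the pathway rather than a part of it, gave small ratios with the same sign in both pairs. Its signal (A_23_P156327) was 1168 for NS-si, 1461 for Sp1-si, 819 for NS-si → CoCl2 and 1364 for Sp1-si → CoCl2 cells. The CoCl2 ratio was -0.29 ± 0.038 for NS-si and -0.33 ± 0.032 for Sp1-si cells. The Sp1-si ratio was 0.38 ± 0.031 without and 0.34 ± 0.034 under CoCl2. The difference of the CoCl2 ratios, -0.041 ± 0.045, was within the spread between spots and turned positive without scaling and with median scaling.

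Set side by side, the ratios of the 3 ligand genes differed in sign. TGFB2 was higher with CoCl2 in NS-si cells (1.44), TGFB3 was lower (-0.54, but -0.043 with normexp), and TGFB1 was at 0.22 with scaling and -0.0097 without it. Of the 2 receptor-activated SMADs, SMAD2 was higher in Sp1-si cells (1.08 on the probe with 10 spots) and SMAD3 was lower (-0.28). The 4 comparisons share their arrays, so the columns of ratios are not independent of each other.

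Other genes of the pathway were read from 5 lists holding 63 genes besides the 10 members, each gene by its brightest probe (highest mean signal). Of the common SMADs and regulators, SMAD4, the partner that both SMAD2 and SMAD3 need, had a mean signal over 10 spots of 211 for NS-si, 252 for Sp1-si, 182 for NS-si → CoCl2 and 383 for Sp1-si → CoCl2 cells. Its Sp1-si ratio was 0.31 ± 0.058 without and 0.68 ± 0.043 under CoCl2. In this list of 20 genes, CoCl2 in NS-si cells put 2 past 2-fold higher, against 3.8% of all genes, and 0 lower, against 3.22%. These were SMAD7, the inhibitory SMAD induced by TGF-beta (1.48 ± 0.059), and PMEPA1, which binds and sequesters SMAD2 and SMAD3 (1.26 ± 0.029). In Sp1-si cells SMAD7 (1.04 ± 0.056) and the SMAD corepressor gene SKIL (1.17 ± 0.073) were past 2-fold higher, against 3.45% of all genes, and SMAD1, a transducer of BMP signals, was lower at -1.002 ± 0.033, against 3.72%. SMAD7 fell short of 2-fold in Sp1-si cells under some scalings (0.99 at the lowest), as did SMAD1 (-0.77). The other SMAD1 probe (A_24_P71938) was at -0.48 ± 0.046 there, short of 2-fold. Sp1 silencing without CoCl2 put SMAD6, the other inhibitory SMAD, higher (1.201 ± 0.064), against 5.87% of all genes. It put NEDD4L, a ubiquitin ligase that targets activated SMAD2 and SMAD3 for degradation, lower (-1.06 ± 0.029), against 5.81%. The NEDD4L ratio under CoCl2 was -1.04 ± 0.033, where 7.72% of all genes were that much lower, and all 4 of its probes were lower in both pairs. Its probes disagreed on CoCl2, with 0.093 for NS-si and 0.11 for Sp1-si cells on the brightest. A_23_P27279 gave 1.02 and 1.05, A_23_P387856 0.93 and 1.23, and A_24_P782308 -0.0030 and 0.66. Dimmer probes of USP15 (-1.64), PPM1A (-1.04) and SKI (-1.02) were past 2-fold lower with CoCl2 in Sp1-si cells, while their brightest probes were not.

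Among the 18 measured target genes of TGF-beta that are reported, CoCl2 in NS-si cells put 4 past 2-fold higher, against 3.8% of all genes, and 0 lower, against 3.22%. Their median log2 ratio was 0.61, against 0.0027 over all genes. In Sp1-si cells 5 were higher, against 3.45% of all genes, and 1 was lower, against 3.72%. The median there was 0.41, against -0.0014 over all genes. BHLHE40, a repressor gene that also responds to hypoxia, gave CoCl2 ratios of 1.70 ± 0.033 for NS-si and 2.06 ± 0.032 for Sp1-si cells, and JUNB, a subunit of AP-1, gave 1.65 ± 0.029 and 1.76 ± 0.027. SMAD7 and PMEPA1 stand on this list too and make up the 4. SNAI1, a repressor of E-cadherin, passed 2-fold with CoCl2 in Sp1-si cells at 1.197 ± 0.032. Of the targets, CCN2, a matricellular protein gene, had signals of 93.0 for NS-si, 311 for Sp1-si, 147 for NS-si → CoCl2 and 169 for Sp1-si → CoCl2 cells. Its CoCl2 ratio was 0.89 ± 0.066 for NS-si but -1.103 ± 0.062 for Sp1-si cells, the latter -0.88 without scaling.

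Sp1 silencing without CoCl2 put 3 of these target genes past 2-fold higher, against 5.87% of all genes, and 2 lower, against 5.81%. Under CoCl2 it put 2 higher, against 7.06%, and 1 lower, against 7.72%. TSC22D1, a TGF-beta-stimulated transcription regulator, was at 2.32 ± 0.030 without and 2.43 ± 0.033 under CoCl2. CCN2 was at 1.797 ± 0.064 without CoCl2, and SNAI1 was at 1.06 ± 0.034 under it. ACTA2, which encodes smooth muscle actin, was lower at -1.19 ± 0.046 without and -1.05 ± 0.043 under CoCl2. The median of the list was 0.17 without CoCl2, against -0.012 over all genes, and 0.18 under it, against -0.017.

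**Figure D4:**
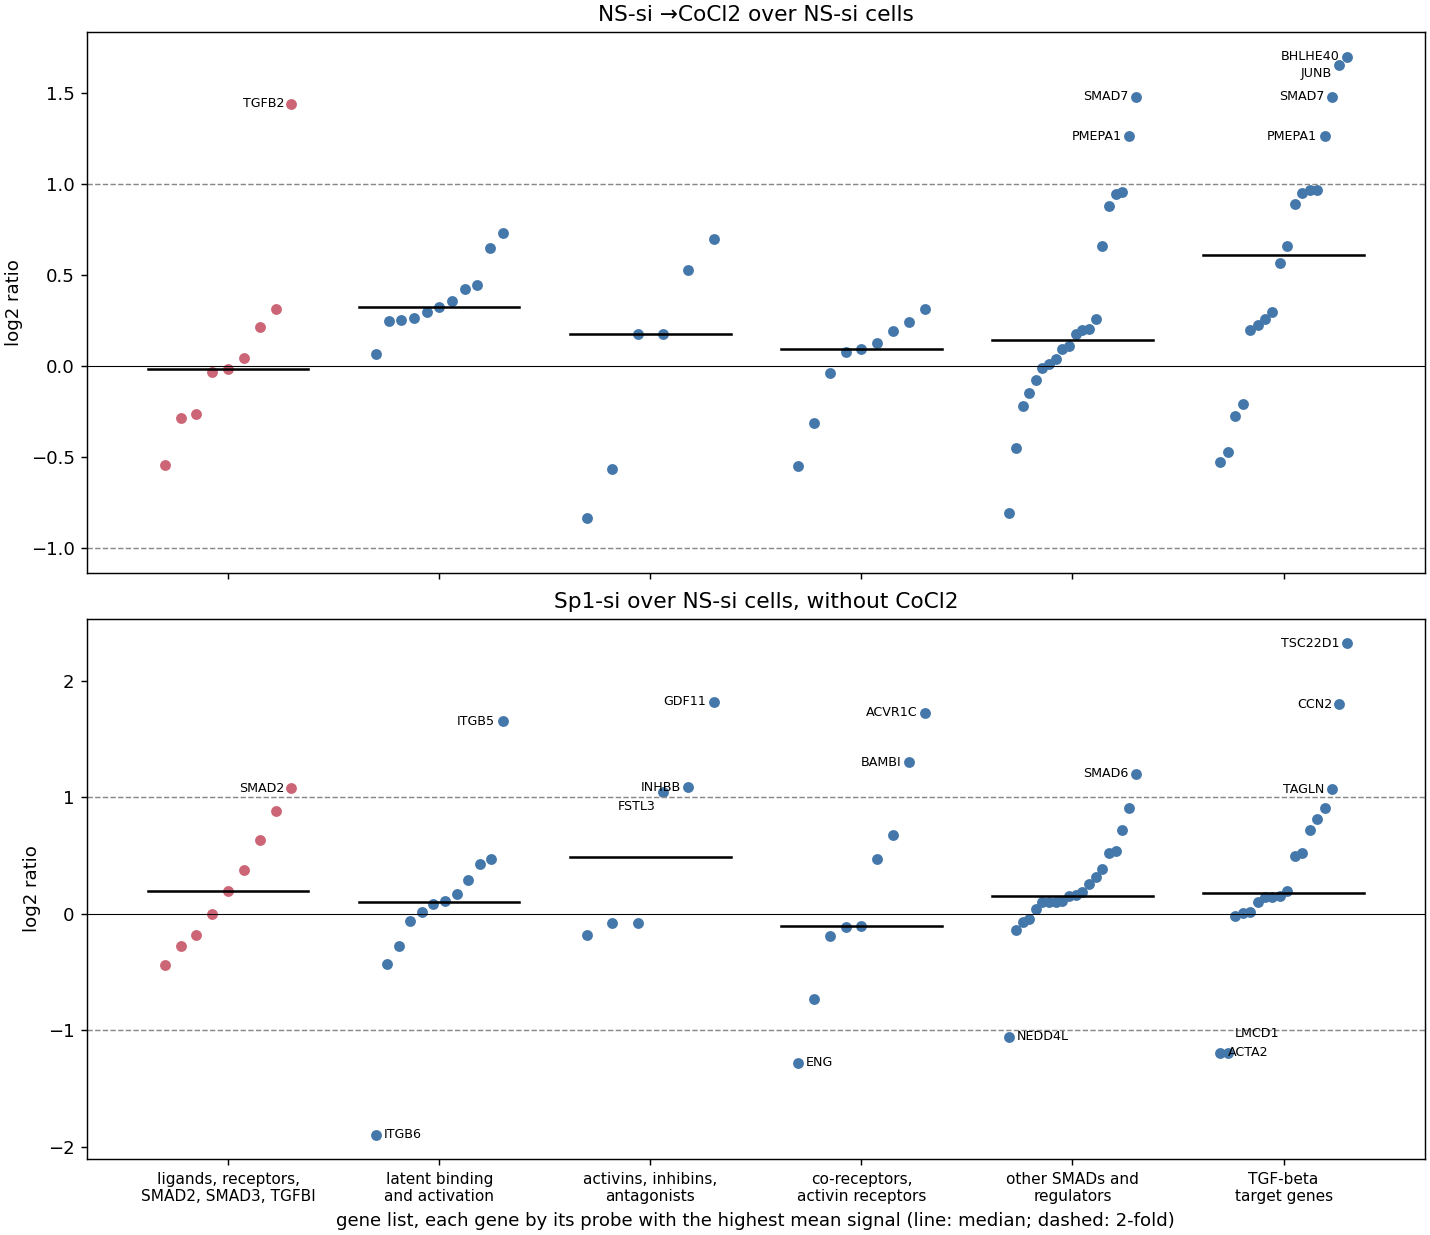
Log2 ratios of the members and of 5 lists of other TGF-beta pathway genes, each gene by its brightest probe (highest mean signal), for NS-si → CoCl2 over NS-si cells (above) and Sp1-si over NS-si cells (below), with a line at the median and names at 2-fold or more. The median of the members is near 0 for CoCl2, that of the target genes is 0.61, and the Sp1-si panel runs from ITGB6 at -1.90 to TSC22D1 at 2.32.

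Of the 12 genes for latent TGF-beta binding and activation and the 8 for activins, inhibins and antagonists, 0 were past 2-fold with CoCl2 in either kind of cell by their brightest probe, where 3.8% of all genes were higher and 3.22% lower in NS-si and 3.45% and 3.72% in Sp1-si cells. Other probes of these lists did pass, with ITGB8 (A_23_P123060) at 1.07 for NS-si and INHBB (A_23_P153958) at 1.004 for Sp1-si cells. The medians of the first list were 0.33 for NS-si and 0.32 for Sp1-si cells. ITGB6, whose integrin releases TGF-beta1 and TGF-beta3 from their latent complex, was lower in Sp1-si cells at -1.90 ± 0.066 and, under CoCl2, at -1.99 ± 0.070. ITGB5, another integrin subunit of this group, was higher at 1.65 ± 0.027 and 1.43 ± 0.031. In the second of these lists GDF11, a ligand that signals through SMAD2 and SMAD3, was higher in Sp1-si cells at 1.82 ± 0.040 and, under CoCl2, 2.52 ± 0.041. FSTL3, which binds activin, was at 1.04 ± 0.064 and 1.07 ± 0.064, and INHBB, the subunit of activin B, at 1.09 ± 0.032 without CoCl2 (0.98 with normexp).

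Of the 9 co-receptor and activin receptor genes, ENG, the co-receptor endoglin, was lower in Sp1-si cells at -1.28 ± 0.073 and, under CoCl2, at -1.31 ± 0.096. ACVR1C, a type I receptor, was higher at 1.73 ± 0.15 without CoCl2, though its signal was dim and normexp gave 0.72. BAMBI, a pseudoreceptor that blocks signalling, was higher at 1.30 ± 0.032. ACVR2B, an activin type II receptor, was the one gene of this list past 2-fold with CoCl2 by its brightest probe. It was at -1.09 ± 0.030 in Sp1-si cells, where 3.72% of all genes were past 2-fold lower. Its CoCl2 ratio was lower there than in NS-si cells by -1.21 ± 0.043, where 2.88% of all genes were past 1 on the lower side. Without scaling both fell short of 2-fold, at -0.86 and -0.76. Its other probes gave differences of -1.41 and -0.11, so they disagreed. Other ratios of the lists also fell short of 2-fold under another setting. Under CoCl2 and without scaling, the Sp1-si ratio was -0.64 for NEDD4L, -0.65 for ACTA2 and -0.91 for ENG. With normexp the Sp1-si ratio without CoCl2 was 0.86 for SMAD6, 0.84 for FSTL3 and -0.76 for ENG, and the CoCl2 ratio of SKIL in Sp1-si cells was 0.81.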

How the data were processed

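RNA of OVSAYO cells in 4 conditions was hybridised to Agilent whole human genome arrays (Cy3, 1 array per condition). The deposited values are intensities of each spot (processed signal), which the authors obtained from Agilent Feature Extraction 10.5.1.1 after background subtraction and detrending, without normalization between arrays. The array annotation is on hg18 (NCBI36) per the file headers, so no probe coordinates are given. The value table of the authors, also deposited, served as an alternative.

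From these, log2 intensities were taken relative to the 75th percentile over the 43376 non-control spots of each array, without spots flagged as outliers, and the spots of each probe were averaged. A call of well above background needed at least 50% of the kept spots of a probe. A ratio was measured where this held on both arrays. Where it held on 1, the signal was set against the lowest passing signal of the other array, and otherwise no ratio was given. The limit was 2-fold. Symbols came from RefSeq accessions, and 28463 of 29877 spots with one matched. The members and gene lists were chosen with earlier results of these data known. Each member probe is given, and in each list and comparison up to 3 genes with the largest ratios past 2-fold, besides SMAD7, SMAD4 and SKIL. Some other probes of list genes that disagreed with the brightest are also given. Some results are not reported here, and the list counts leave them out.

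Alternatives were no scaling, median scaling, a percentile taken only over probes well above background everywhere, quantile normalization, the authors' value table, a normexp correction (offset 50) of the median signals, outlier spots kept, a floor on dim signals, stricter and no background filters, and a 1.5-fold limit. For the list genes these were added after the data were seen. The counting was tested on simulated data. Python 3.11.15, numpy 2.4.6, pandas 2.3.3, matplotlib 3.10.9, R 4.3.3 and limma 3.58.1 were used. Protein, PCR and tumour data of the study were not analysed here.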

Additional observations from a re-analysis of the deposited data

Results flagged for a closer look

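The screen took the member probes, SMAD4, and the list genes named for a ratio past 2-fold on their brightest probe, by that probe. Among these, 4 had a CoCl2 ratio of opposite sign in NS-si and Sp1-si cells, each beyond 2 SD between spots. Other genes and probes of the lists were not screened in this way. Some met the same rule, among them the brightest probes of SKI (0.18 for NS-si, -0.56 for Sp1-si cells) and PPM1A (-0.14 and 0.23). With 1 array per condition the difference was not tested. The SMAD2 probe A_24_P202527 was at -0.17 for NS-si and 0.23 for Sp1-si cells, a difference of 0.40, while the SMAD2 probe with 10 spots showed -0.040. CCN2 was at 0.89 and -1.103, a difference of -1.99. ACVR2B was at 0.13, turning to -0.098 without scaling so that both signs were negative, and -1.09, a difference of -1.21. BAMBI was at 0.092, turning to -0.13 without scaling so that the signs were no longer opposite, and -0.26, a difference of -0.36 that turned to 0.10 without scaling.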

How the results depend on the processing

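Of the 65 ratios measured for member probes, 8 were past 2-fold. None of these 8 changed sign in any setting tried, 5 stayed past 2-fold under every scaling, and 3 with normexp. The sign of 15 of the 65 changed under at least 1 scaling. Of 110 pairs of a count and a setting, 90 were within 1.5 times the reported count and 20 were not. The 90 include counts of 0 that stayed 0. They also include the floor on dim signals, which by its making could not alter a measured probe with 1 spot. The 90 are thus no gauge of how firm the counts are. Without scaling, the count of member probes past 2-fold lower with CoCl2 in NS-si cells became 1, that higher with Sp1-si became 1, that lower with Sp1-si under CoCl2 became 0, and those of the difference of CoCl2 ratios became 1 higher and 0 lower. With median scaling and with quantile normalization, the count lower with Sp1-si under CoCl2 became 0. With normexp, the count higher with CoCl2 in NS-si cells became 0, that higher with Sp1-si became 1, and those lower with Sp1-si under CoCl2 and lower in the difference became 0. With no filter on background calls, there were 2 higher with CoCl2 in NS-si cells, 1 lower with CoCl2 in Sp1-si cells, 2 lower with Sp1-si under CoCl2, and 1 higher and 2 lower in the difference. With a limit of 1.5-fold, there were 1 lower with CoCl2 in NS-si cells, 1 higher with CoCl2 in Sp1-si cells, 5 higher with Sp1-si, and 1 higher in the difference. The cause was not tested. The signal over background limits TGFB2, TGFB3 and TGFBR1 most, since the SD between spots of the dimmest 10-spot probes was 0.31 for a CoCl2 ratio in NS-si cells and that of the brightest was 0.029. No paired analysis was possible because each condition has 1 array.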
